A study of Galdieria sulphuraria with 9 samples.

Results

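The genes described here are those of the red alga *Galdieria sulphuraria* whose transcript level stood apart at the first of a pair of cold samplings (C-28.1) and not at the other samplings of one temperature timeline. They were chosen by their measured levels. Counts were scaled to CPM (read counts normalised to the total of their library), and the log2 of CPM + 1 was averaged over the libraries of each sampling. A gene was taken when its average in C-28.1 lay at least 1 (a 2-fold distance) above, or at least 1 below, the averages of H-42, H-46 and C-28.2, while those 3 averages spanned less than 0.7, and when its mean CPM reached 10 in at least 1 sampling. This gave 84 genes, 28 raised and 56 lowered, which is 1.44% of the 5823 genes that reached the minimum and part of 6538 genes in all. Because the levels themselves chose the genes, their distances are given as a description and carry no test.

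*G. sulphuraria* is a unicellular alga of hot, acidic waters that grows photoautotrophically in light, and a drop in temperature slows its enzymes and stiffens its membranes. In algae and plants, transcripts respond to a temperature shift within hours, and heat shock proteins (chaperones that keep other proteins folded) are usually made at high temperature. Plastid genes of red algae are transcribed by a bacterial-type RNA polymerase, whose sigma factors are encoded in the nucleus and direct the polymerase to promoters.

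All libraries came from wild type strain 074W grown autotrophically in batch culture under constant light and shaking. Replicate cultures went through the samplings one after the other, and libraries with the same letter (A, B or C) were taken as the same culture. C-28.1 was taken after 48 h at 28 °C that followed growth at 42 °C (cultures A, B and C). H-42 was taken at the start, after 2 weeks at 42 °C (cultures B and C). H-46 was taken after a further 48 h at 46 °C (cultures A and C), and C-28.2 after another 48 h at 28 °C (cultures A and C). C-28.1 therefore differs from C-28.2 in the order of the shifts, in the temperature that came before it and in the age of the culture, and these cannot be told apart. Temperatures are given as the sample labels state them. The heat and cold columns of one of the study's tables run the other way for the same genes, and which is right was not settled here, so every statement on warm or cold rests on the labels. Each library holds raw counts of reads per gene, between 4389066 and 8989387 in total. The study describes 2 replicates at each sampling, whereas C-28.1 has libraries A, B and C here. Which of these the study used is not stated.

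The 9 libraries did not all group by sampling to the same degree. The 3 libraries of C-28.1 lay 0.23 to 0.36 apart (root mean square log2 difference over genes), but H-46 A and H-46 C lay 0.66 apart and C-28.2 A and C-28.2 C 0.58 apart. C-28.2 A was closer to the C-28.1 libraries (0.53 to 0.61) than C-28.2 C was (0.73 to 0.80). C-28.1 A and C-28.1 B carry the same adapter index in the labels (12), and C-28.1 C another (21). The lanes are not given in the labels, and reads of libraries with one index in one lane could not be separated, so whether C-28.1 A and C-28.1 B are independent rests on the labels. They lay 0.33 apart, against 0.23 between C-28.1 B and C-28.1 C. Of 9 genes named as chaperones or heat shock proteins, 4 were below every other library in C-28.1 (15% of all genes were) and 1 was above (9.29% of all genes were), none was called in the model of all genes described further on, and their median log2 difference from the mean of the other samplings was -0.56, against -0.10 over all genes.

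In C-28.1 the 28 raised genes together took 3.00% (culture A), 2.70% (B) and 2.91% (C) of all counts. They took 1.13% (B) and 1.10% (C) in H-42, 1.51% (A) and 0.871% (C) in H-46 and 1.42% (A) and 1.11% (C) in C-28.2. The sum was thus highest in the 3 libraries of C-28.1, and outside C-28.1 it was highest in the 2 libraries of culture A. The 56 lowered genes took 0.244% (A), 0.226% (B) and 0.215% (C) in C-28.1, against 0.560% (B) and 0.625% (C) in H-42, 0.448% (A) and 0.756% (C) in H-46 and 0.468% (A) and 0.616% (C) in C-28.2. Here too culture A of H-46 and of C-28.2 came nearest to C-28.1. In RNA from whole cultures, fewer cells of a type and less RNA per cell cannot be told apart.

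**Figure D1:**
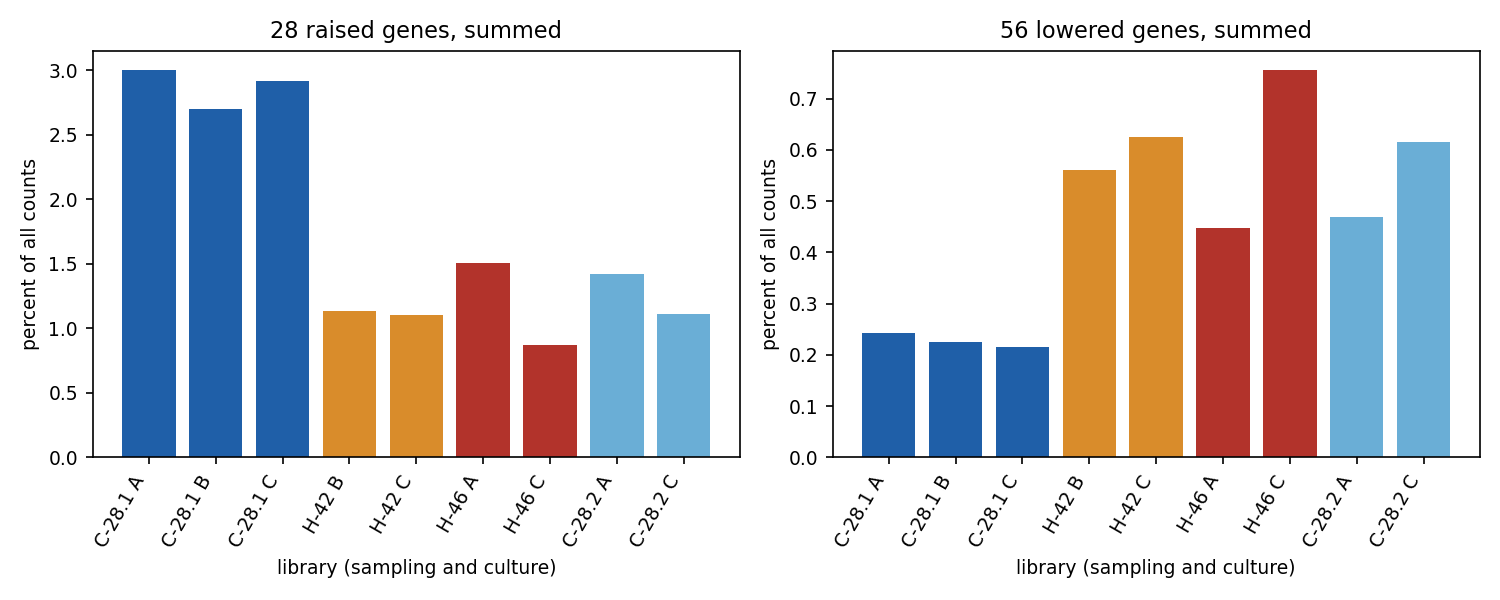
Percent of all counts (vertical axis, from 0) taken by the raised genes (left) and the lowered genes (right) in each library, with bars coloured by sampling. The raised genes took 2.70% to 3.00% in C-28.1 and at most 1.51% elsewhere. The lowered genes took at most 0.244% in C-28.1 and at least 0.448% elsewhere.

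In all 28 raised genes each C-28.1 library was above each of the other 6 libraries, and in all 56 lowered genes each was below. Of all 5823 genes, 9.29% had every C-28.1 library above the other 6, and 15% had every one below. The distance to the nearest sampling was close to the minimum for most genes. It had a median of 1.11 in the raised genes (1.01 to 1.55, or 2.02- to 2.93-fold) and of -1.11 in the lowered genes (-1.61 to -1.0002). A distance of 1.3 or more was reached by 4 raised and 8 lowered genes. The nearest sampling was C-28.2 in 18 of 28 raised genes, H-46 in 6 and H-42 in 4, and in the lowered genes C-28.2 in 30 of 56, H-46 in 13 and H-42 in 13. The 3 samplings other than C-28.1 spanned a median of 0.40 in the raised and 0.33 in the lowered genes.

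**Figure D2:**
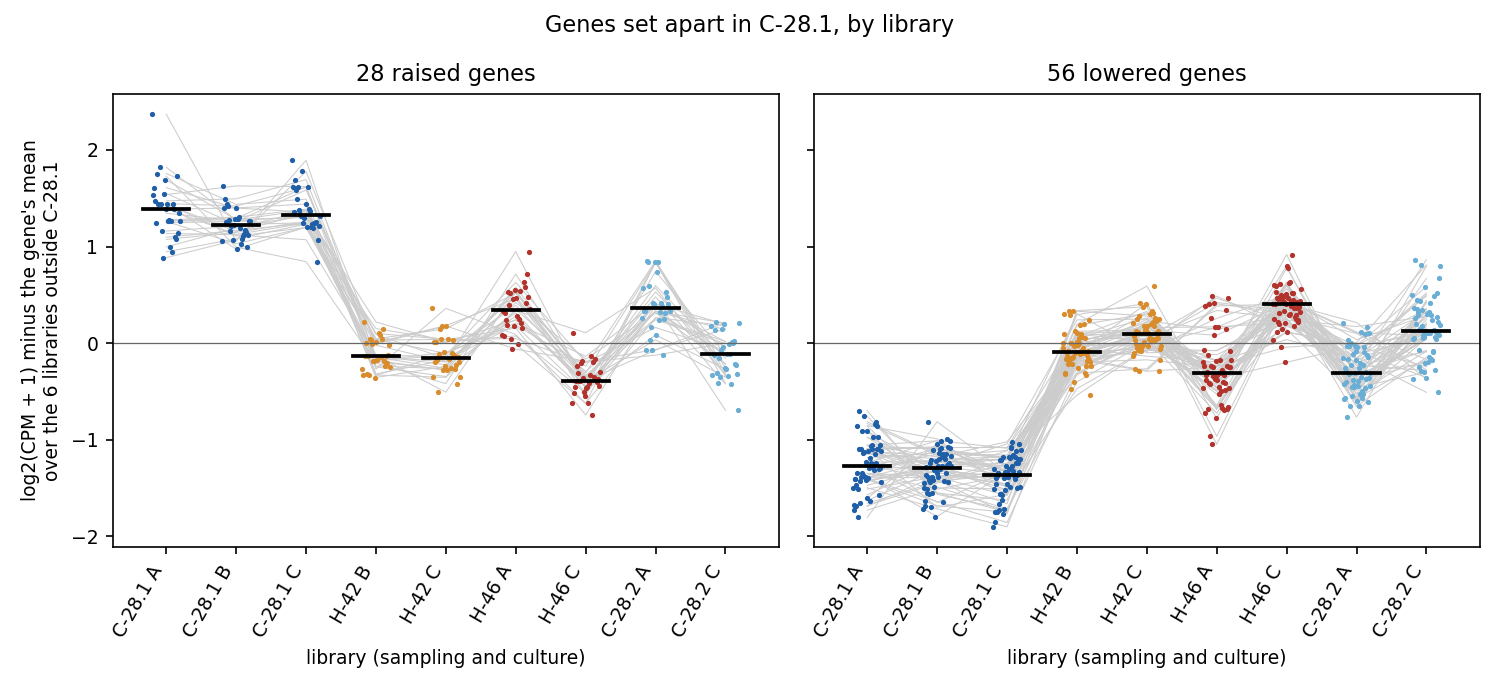
Level of each gene in each library on the log2(CPM + 1) scale, relative to its mean over the 6 libraries outside C-28.1 (vertical axis), for the raised (left) and lowered (right) genes. Points are genes, grey lines join one gene and black bars are medians. The raised genes had medians of 1.39, 1.22 and 1.33 in the C-28.1 libraries (culture A, B, C), and of 0.34 and 0.36 in H-46 A and C-28.2 A, the highest outside C-28.1.

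Both groups lay at different levels of expression. The mean CPM of the raised genes in C-28.1 had a median of 325 (14.2 to 7407), against medians of 114, 143 and 148 in H-42, H-46 and C-28.2. The lowered genes had a median of 25.9 CPM in C-28.1 (2.39 to 273), against 62.6, 66.1 and 61.1. Per kilobase of gene length, the median level of the raised genes in C-28.1 was 138 CPM, that of the lowered genes 30.6 and that of all genes 42.3. In C-28.2 these medians were 59.5, 75.1 and 44.2 CPM per kilobase. Fewer than 50 counts in some library stood behind 3 raised and 11 lowered genes, and the lowest count was 8.

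Few of the genes have a product name. The study's tables, which mostly list genes with alternatively spliced introns, give an informative product for 771 genes, among them 1 raised and 12 lowered members. One of these tables lists genes that the study called differentially expressed between heat and cold in these data. Lists of named genes, the chaperones above included, are therefore not a neutral sample of all genes. The other genes are given by their number only.

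The named raised gene was Gs35420, an RNA polymerase primary sigma factor. It had 363 (A), 366 (B) and 459 (C) CPM in C-28.1, against 152 (B) and 153 (C) CPM in H-42, 180.0 (A) and 116 (C) in H-46 and 145 (A) and 177 (C) in C-28.2. The mean of C-28.1 was 396 ± 54.9 (SD, n = 3), and the highest other library, H-46 A, lay well below its lowest value. Its distance was 1.29, and the other 3 samplings spanned only 0.15. The second sigma factor with a product name, Gs17390, is not among the raised genes. It had 165 (A), 193 (B) and 198 (C) CPM in C-28.1, against 25.5 (B) and 36.1 (C) in H-42, 34.4 (A) and 43.5 (C) in H-46 and 105 (A) and 98.9 (C) in C-28.2. Gs17390 was thus intermediate in C-28.2, whereas Gs35420 in C-28.2 lay among its values at high temperature.

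Among raised genes without a product name, Gs06700 had the largest distance (1.55) on the fewest counts, 8 to 95 in a library. It had 20.5 (A), 7.63 (B) and 14.4 (C) CPM in C-28.1, against 2.45 (B) and 4.33 (C) in H-42, 3.42 (A) and 1.70 (C) in H-46 and 3.99 (A) and 3.71 (C) in C-28.2. The groups did not overlap, as in every raised member and 9.29% of all genes. The C-28.1 libraries of Gs06700 differed from each other more than those of any other raised gene (SD of 0.67 on the log2 scale). Gs31410, at a distance of 1.37, had 96.1 (A), 102 (B) and 102 (C) CPM in C-28.1, against 25.6 (B) and 25.2 (C) in H-42, 41.2 (A) and 35.0 (C) in H-46 and 48.7 (A) and 25.6 (C) in C-28.2. Gs19480, at 1.34, had 1044 (A), 902 (B) and 876 (C) CPM in C-28.1, against 397 (B) and 344 (C) in H-42, 359.8 (A) and 238 (C) in H-46 and 431 (A) and 314 (C) in C-28.2. In both, the highest library outside C-28.1 was C-28.2 A.

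The most counted raised genes were Gs11340, Gs32860 and Gs61820. Gs11340 had 8058 (A), 6629 (B) and 7534 (C) CPM in C-28.1, against 3069 (B) and 3297 (C) in H-42, 4259 (A) and 2266 (C) in H-46 and 3045 (A) and 2329.7 (C) in C-28.2. Gs32860 had 6434 (A), 6416 (B) and 6654 (C) CPM in C-28.1, against 2252 (B) and 2103 (C) in H-42, 3408 (A) and 2179 (C) in H-46 and 3358 (A) and 3083 (C) in C-28.2. Gs61820 had 5817 (A), 4611 (B) and 4903 (C) CPM in C-28.1, against 2374 (B) and 2189 (C) in H-42, 2383 (A) and 1276 (C) in H-46 and 2801 (A) and 2163 (C) in C-28.2. These 3 genes rest on 6010 or more counts in every library, and H-46 C gave the lowest value in Gs11340 and Gs61820. Gs09840 (1439, 1460.1 and 1676 CPM in C-28.1) and Gs41710 (1162, 1223 and 1321) were also among the 5 most counted, with highest values outside C-28.1 of 651 (C-28.2 A) and 739 (H-46 A).

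The raised gene with the longest model, Gs24380 (7175 bases), appears in the study's gene tree of PRPF8, the large protein at the catalytic core of the spliceosome. Whether it is the PRPF8 gene itself was not analysed here. It had 446 (A), 423 (B) and 409 (C) CPM in C-28.1, against 172 (B) and 153 (C) in H-42, 339 (A) and 128 (C) in H-46 and 232 (A) and 108 (C) in C-28.2. H-46 A was close below C-28.1, and culture A was more than 2-fold above culture C in both H-46 and C-28.2. None of the 10 genes with a product name of pre-mRNA splicing was a member, where 1.44% of all genes were.

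Of the lowered genes with a product name, 3 act on RNA or on transcription. Gs24350 is a tRNA-intron endonuclease, the enzyme that cuts introns out of precursor tRNAs. It had 80.6 (A), 86.0 (B) and 83.0 (C) CPM in C-28.1, against 214 (B) and 243 (C) in H-42, 244 (A) and 252 (C) in H-46 and 175 (A) and 188 (C) in C-28.2. Its C-28.1 mean was 83.2 ± 2.69 (SD, n = 3), and both cultures of C-28.2 lay below the lowest library at high temperature. Gs38150, named only as a transcription factor, had 141 (A), 112 (B) and 94.6 (C) CPM in C-28.1, against 379 (B) and 366 (C) in H-42, 226 (A) and 345 (C) in H-46 and 242 (A) and 286 (C) in C-28.2. Gs25550 is named as SOH1-like (SOH1 is a subunit of the Mediator complex in yeast). It had 17.6 (A), 19.4 (B) and 19.9 (C) CPM in C-28.1, against 49.2 (B) and 62.0 (C) in H-42, 41.7 (A) and 72.6 (C) in H-46 and 30.2 (A) and 71.2 (C) in C-28.2. In all 3 genes, as in every lowered member and 15% of all genes, each C-28.1 library was below the other 6. In Gs25550 the CPM of C-28.2 A was more than 2-fold below that of C-28.2 C.

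Another 5 of the named lowered genes are annotated as enzymes. Gs51620, uracil phosphoribosyltransferase, which recycles uracil into UMP, averaged 30.8 ± 2.26 CPM in C-28.1 (SD, n = 3), against 75.4 (B) and 74.1 (C) in H-42, 55.8 (A) and 116 (C) in H-46 and 60.6 (A) and 83.8 (C) in C-28.2. Gs31390, dephospho-CoA kinase, which carries out the last step of coenzyme A synthesis, had 33.05 (A), 26.1 (B) and 22.5 (C) CPM in C-28.1, against 55.4 (B) and 67.5 (C) in H-42, 47.2 (A) and 67.3 (C) in H-46 and 57.8 (A) and 65.4 (C) in C-28.2. In both genes the lowest library outside C-28.1 was H-46 A. Gs08970, a group 2 glycosyl transferase (a family that transfers sugars), had a distance of -1.13 with 35.9 to 43.4 CPM in C-28.1 and 73.4 to 135 CPM in the other libraries. Gs60660, a tricarboxylate decarboxylase of a kind known from the breakdown of aromatic acids in bacteria, had a distance of -1.05 with 96.1 to 119 CPM in C-28.1 and 147 to 336 CPM elsewhere. Gs07250, an alpha/beta hydrolase (a large fold family of varied function), had a distance of -1.003 with 26.6 to 37.6 CPM in C-28.1 and 64.5 to 104 CPM elsewhere. In these 3 genes C-28.1 did not overlap with the rest, as in every lowered member and 15% of all genes.

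The remaining named lowered genes have varied annotations. Gs29990, annotated as a periplasmic divalent cation tolerance protein (tolerance to metal ions in *Escherichia coli*), had 112 (A), 99.9 (B) and 110.3 (C) CPM in C-28.1, against 260.3 (B) and 313 (C) in H-42, 221 (A) and 434 (C) in H-46 and 217 (A) and 329 (C) in C-28.2. Its distance of -1.31 was the largest among named lowered genes, and culture A was nearest to C-28.1 at both later samplings. Gs41110 is a mitochondrial carrier, one of the proteins that move metabolites across the inner mitochondrial membrane. It had 17.7 to 20.8 CPM in C-28.1 and 33.3 to 58.8 CPM in the other libraries, at a distance of -1.04. Gs00300 belongs to the cornichon family, which in yeast and animals helps load cargo into vesicles leaving the endoplasmic reticulum. It had 18.7 (A), 12.0 (B) and 13.2 (C) CPM in C-28.1, against 29.4 (B) and 39.4 (C) in H-42, 34.6 (A) and 39.9 (C) in H-46 and 41.2 (A) and 72.8 (C) in C-28.2. Gs00300 was highest in both libraries of C-28.2, so that its values at the first and second cold sampling lay on opposite sides of those at high temperature. Gs32320, regulatory subunit N12 of the 26S proteasome, which degrades proteins tagged with ubiquitin, had 84.2 (A), 85.5 (B) and 69.7 (C) CPM in C-28.1, against 159 (B) and 194 (C) in H-42, 113 (A) and 234 (C) in H-46 and 167 (A) and 259.8 (C) in C-28.2. H-46 A was again the library nearest to C-28.1.

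**Figure D3:**
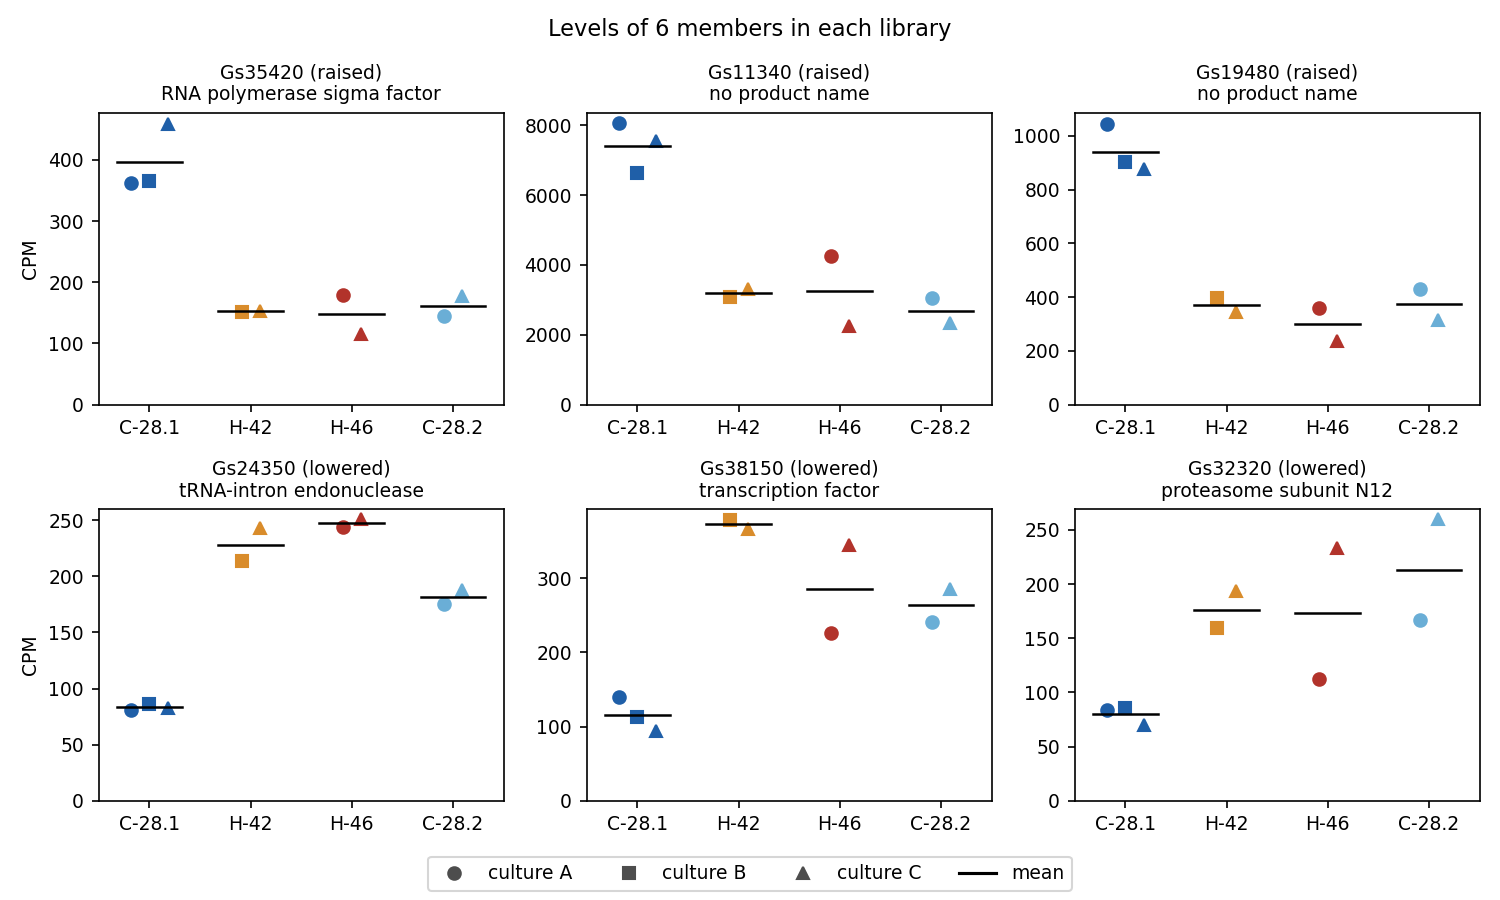
CPM (vertical axis, from 0) of 3 raised genes (top row) and 3 lowered genes (bottom row) in each library. Symbols give the culture, colours the sampling and black lines the mean of a sampling. C-28.1 is separate from the other 6 libraries in each panel, as in all members. It spans 363 to 459 CPM for Gs35420 and 80.6 to 86.0 CPM for Gs24350.

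Of the largest distances among lowered genes without a product name, those of Gs28770 and Gs15690 belonged to genes of low level. Gs28770 (-1.61) had 3.75 (A), 3.08 (B) and 2.59 (C) CPM in C-28.1, against 10.7 to 17.97 CPM in the other 6 libraries. Gs15690 (-1.39) had 2.86 (A), 3.53 (B) and 3.50 (C) CPM in C-28.1, against 8.55 to 14.8 CPM in the others. These values rest on as few as 17 counts (Gs28770) and 13 counts (Gs15690) in a library. Gs23820 (-1.40) had 39.9 (A), 47.0 (B) and 52.0 (C) CPM in C-28.1, against 130.3 (B) and 151 (C) in H-42, 93.9 (A) and 173 (C) in H-46 and 151 (A) and 100.2 (C) in C-28.2. It was one of the lowered genes in which C-28.2 A exceeded C-28.2 C. Of the most counted lowered genes, Gs22010 had 220.4 to 334 CPM in C-28.1 and 442 to 711 CPM elsewhere, Gs55550 138 to 175 and 313 to 709 CPM, and Gs21640 116 to 136 and 176 to 428 CPM. Gs33450 (-1.01), which appears in the study's gene tree of SNRPG, a protein of the ring around spliceosomal RNAs, had 42.8 to 59.5 CPM in C-28.1 and 74.3 to 143 CPM elsewhere. Whether it is the SNRPG gene itself was not analysed here.

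Genes at the thresholds show how closely members and other genes followed each other. Gs32860 (distance 1.01) and Gs24380 (1.03) were the raised genes nearest to the minimum, and Gs39320 and Gs30630 missed it with 0.9994 and 0.9979. Among the lowered genes, Gs06040 (-1.0002) and Gs30900 (-1.002) were just inside, and Gs43730 and Gs47150 (both -0.98) just outside. Between 0.8 and 1 lay another 46 genes above and 73 below the other samplings. On the span of the other samplings, Gs24420 (0.59) and Gs31410 (0.57) were the raised genes nearest to the limit of 0.7, and Gs05400 (0.73) and Gs33980 (0.75) were just outside it. For lowered genes these were Gs10300 (0.698) and Gs31900 (0.68) inside, and Gs01590 (0.704) and Gs41670 (0.73) outside. Gs33980 had 224 (A), 249 (B) and 289 (C) CPM in C-28.1 and 57.7 to 124 CPM in the other libraries. Its groups did not overlap either, as in 9.29% of all genes.

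The only adjacent members in assembly ASM34128v1 were Gs44720 and Gs44730, both lowered, so that 3.57% of lowered members had a lowered member beside them, against 1.798% of other genes. Within 5 genes, 2 of 28 raised members (7.14%) had another raised member, against 4.01% of other genes, and 4 of 28 (14.3%) had a lowered one, against 8.33% of other genes. Of the lowered members 2 of 56 (3.57%) had another lowered member within 5 genes, against 8.33% of other genes. Each of these shares of members rests on 4 genes or fewer. Genes next to a raised member had a median log2 difference of -0.07 between C-28.1 and the mean of the others, and genes next to a lowered member -0.03, against -0.10 over all genes.

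Product lists put the members beside other genes of their pathways. Some names come from the study's list of genes changed between heat and cold in these data. The numbers called in a list are therefore not comparable with the share of all genes, and nothing is read from that difference. The comparison was that of C-28.1 with the mean of H-42, H-46 and C-28.2 in a model of all 6264 genes tested with edgeR's quasi-likelihood test, and a call needed an adjusted p (Benjamini-Hochberg) below 0.01 together with a change of over 2.5-fold. The members were chosen on this contrast, so their own calls are only a description. Of the raised members 19 of 28 were called higher (3.05% of all genes were), and of the lowered members 21 of 56 were called lower (3.27% of all genes were). At an adjusted p below 0.05 the same numbers of members were called, against 3.24% of all genes higher and 4.01% lower. The number of lowered members called was 35 with library totals. It was 7 without C-28.1 C, 10 without C-28.1 B, 11 without H-46 C, 12 without C-28.2 C, 13 without H-42 C, 34 without C-28.2 A and likewise 34 without H-46 A. The number of raised members called stayed between 13 and 27 in these settings. Of the 2 sigma factors both rose, Gs17390 by a log2 fold change of 2.00 (standard error 0.16, adjusted p = 2.17e-05 from edgeR with Benjamini-Hochberg adjustment). Of 10 splicing genes 1 rose and none fell, namely the splicing factor, arginine/serine-rich 7 (Gs33180), with 799 (A), 997 (B) and 1035 (C) CPM in C-28.1, against 148 to 260.1 CPM in H-42 and H-46 and 559 (A) and 497 (C) CPM in C-28.2. In Gs33180 each library of both cold samplings stood above each library at high temperature.

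Of 36 genes of protein degradation none rose and 1 fell, a ubiquitin-conjugating enzyme E2 (Gs53610), at a list median of -0.28 against -0.03 over all genes tested. The proteasome member Gs32320 had a log2 fold change of -1.14, under the fold minimum. The regulatory subunit N8 of the same complex (Gs04270) had 175 to 221 CPM in C-28.1, between 104 and 125 CPM in H-42 and H-46, and 242 (A) and 209.6 (C) CPM in C-28.2. Of 31 genes of tRNA and ribosome biogenesis 1 rose (isoleucyl-tRNA synthetase, Gs38250) and none fell, the member Gs24350 included, whose log2 fold change of -1.29 stayed just under the minimum. The subunit Sen54 of the tRNA-splicing endonuclease (Gs44320), which in yeast belongs to the same enzyme, had 24.8 to 26.7 CPM in C-28.1, against 21.9 to 63.2 CPM in the other libraries, so the samplings overlapped there.

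Larger lists held 1 member or none each, where 1.44% of all genes were members, so nothing is read from these numbers of members. Of 33 genes of transcription and chromatin 1 rose (an H3/H4 histone acetyltransferase, Gs48070) and 1 fell (a zinc finger protein, Gs13970), at a list median of -0.41. Of 57 genes taken as transporters 4 rose and 2 fell, at a median of 0.12, where the word carrier also caught an acyl carrier protein synthase (Gs14230) among those that rose. Of 81 genes of carbohydrate metabolism 5 rose and 2 fell. Of 31 genes of nitrogen and amino acid metabolism, a list with no member, 6 rose and 1 fell, at a median of 0.51. Of 15 cytosolic ribosomal protein genes 3 rose and none fell, at a median of 0.62, again without a member.

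The members' distance differed between cultures. Within culture C, the C-28.1 library was at least 1 from the nearer of H-46 and C-28.2 in 28 of 28 raised and 52 of 56 lowered genes. Within culture A, which has the same 3 samplings, this held for 9 of 28 raised and 14 of 56 lowered genes. The median distance was 0.92 in culture A and 1.45 in culture C for the raised genes, and 0.77 in culture A and 1.49 in culture C for the lowered genes. It was smaller in culture A for 26 of 28 raised and 52 of 56 lowered genes. In every member the culture A library of C-28.1 was beyond the culture A libraries of H-46 and C-28.2, by as little as 0.08. This follows from the lack of overlap in all members and is no further check. Of the libraries outside C-28.1, the one nearest to C-28.1 was H-46 A or C-28.2 A in 26 of 28 raised genes (13 each) and in 49 of 56 lowered genes (27 and 22). Over all genes, H-46 A and C-28.2 A also deviated together from culture C (Pearson r of 0.60 between their deviations across genes, which are not independent replicates). Both also lay nearer to C-28.1 over all genes. In root mean square log2 difference, C-28.2 A lay 0.53 to 0.61 from the C-28.1 libraries, and C-28.2 C 0.73 to 0.80. H-46 A lay 0.950 to 1.002 from them, and H-46 C 1.083 to 1.103. The shares of all genes matching these member counts were not computed, so the counts are not read as a trait of the members.

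**Figure D4:**
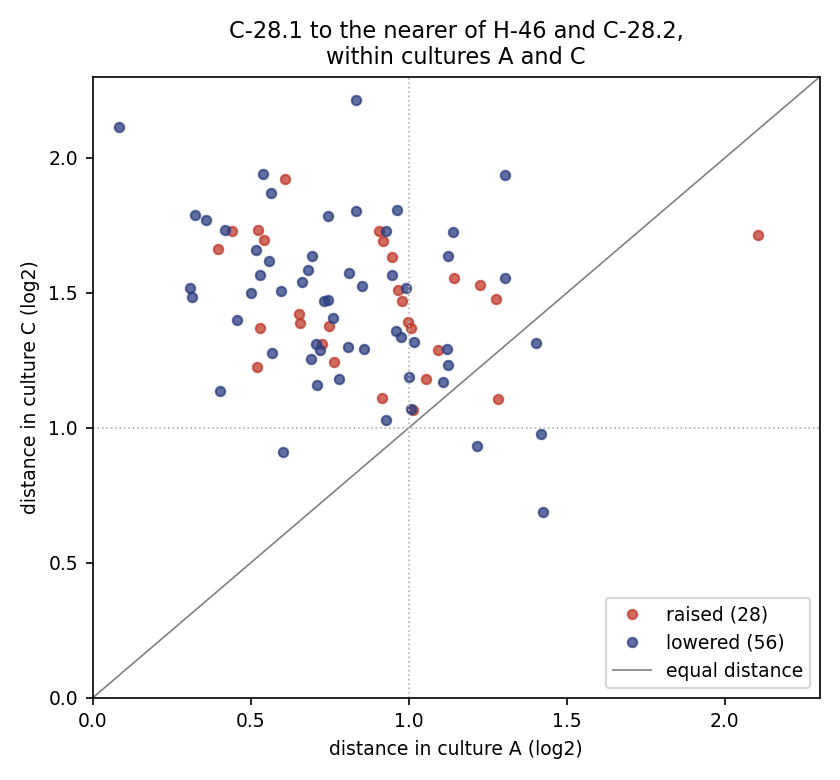
Distance of C-28.1 from the nearer of H-46 and C-28.2, in log2 units, within culture A (horizontal axis) and within culture C (vertical axis), 1 point per gene. Most points lie above the line of equal distance: the medians were 0.92 in culture A and 1.45 in culture C for the raised genes, 0.77 in culture A and 1.49 in culture C for the lowered genes.

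The number of genes set apart depended on the later libraries of both cultures, H-46 A least. Without H-46 A the same thresholds gave 33 raised and 60 lowered genes, 22 and 47 of them members. Without C-28.2 A they gave 88 raised and 110 lowered genes, without C-28.2 C 15 and 35, and without H-46 C 16 and 27. Of the 84 genes, 27 raised and 47 lowered were still set apart without C-28.2 A, 10 and 26 without C-28.2 C, and 13 and 24 without H-46 C. Without both later libraries of culture A, an alternative chosen after seeing the data, 104 raised and 120 lowered genes were set apart, 26 and 40 of them members.

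The level in a C-28.1 library that had no part in the choice was also compared. Genes were chosen again with 1 library of C-28.1 left out, and the level of that library was set against the averages of the other samplings. Without C-28.1 A, 15 of 28 raised and 26 of 65 lowered genes were 1 or more beyond all 3 averages in C-28.1 A. Without C-28.1 B this held in C-28.1 B for 18 of 32 raised and 38 of 55 lowered genes, and without C-28.1 C in C-28.1 C for 16 of 23 and 35 of 51. Over all genes the share was between 0.773% and 2.06%. Apart from 1 lowered gene in C-28.1 A, all chosen genes lay on the same side of the 3 averages in the library left out. The share of all genes for which this held was not computed, so nothing is read from it. The averages of H-42, H-46 and C-28.2 that chose the genes also served in this comparison, which by itself raises the share above that of all genes. The values therefore bear on the spread within C-28.1 alone. C-28.1 A and C-28.1 B carry the same adapter index, so whether a library left out is independent rests on the labels.

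Gene length separated the groups, although the choice did not use it. The raised genes had a median length of 2370 bases, the lowered genes 891 bases and all 5813 genes with a known length 1418 bases. Of the raised genes 23 of 28 were longer than that median, against 8 of 56 lowered genes. The same direction ran through all genes. Dividing all genes into 5 groups by length, the median log2 difference between C-28.1 and the mean of the others was -0.46 in the shortest group, -0.24, -0.06 and 0.03 in the next 3 and 0.15 in the longest. From the shortest to the longest group there were 2, 2, 2, 6 and 16 raised members and 29, 16, 6, 4 and 1 lowered members. Genes set apart by the same thresholds in C-28.2 had the opposite lengths, with a median of 1037 bases in 33 raised and 1961 bases in 15 lowered genes.

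The difference between short and long genes varied between libraries of one sampling as well as between samplings. The median log2(CPM + 1) of the shortest group minus that of the longest was -0.29, -0.25 and -0.25 in cultures A to C of C-28.1, 0.39 (B) and 0.53 (C) in H-42, -0.43 (A) and 0.61 (C) in H-46 and 0.13 (A) and 0.86 (C) in C-28.2. It was negative in the 3 libraries of C-28.1 and in H-46 A. C-28.2 A lay between those and the rest. These are the culture A libraries in which the members were nearest to C-28.1.

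**Figure D5:**
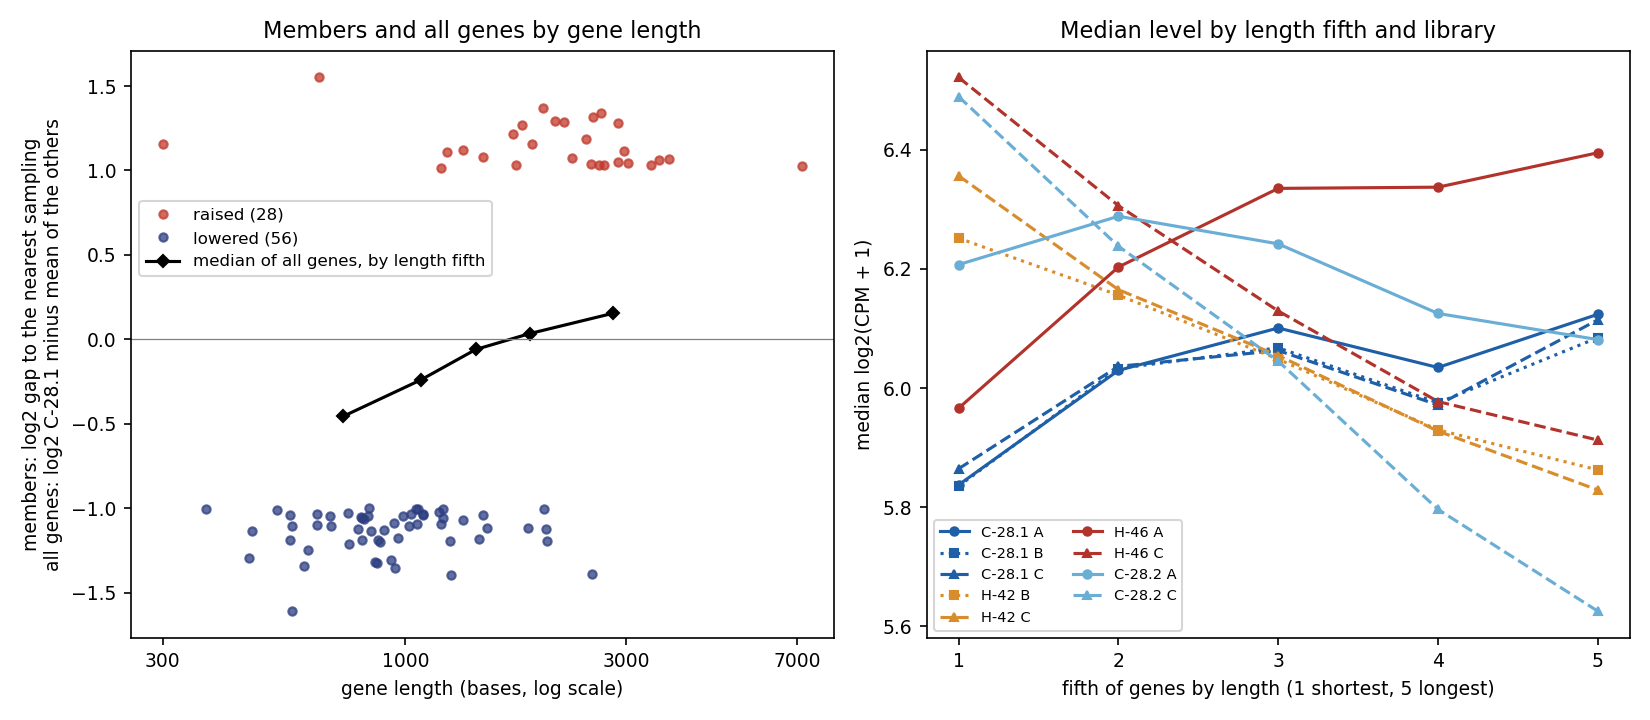
Left, log2 distance of the members to the nearest sampling by gene length in bases (log axis), with the median log2 difference of all genes between C-28.1 and the mean of the others in 5 length groups (black). Right, median log2(CPM + 1) of all genes in the same groups for each library. In C-28.1 and H-46 A the shortest group lay below the longest, by 0.25 to 0.43, and in the other 5 libraries above it.

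When the median deviation of each library was subtracted within 10 bins of gene length, an alternative chosen after seeing the data, 29 raised and 19 lowered genes were set apart. This step also takes out the median shift of each library over all genes, so its effect is not that of gene length alone. Of the original genes, 17 of 28 raised and 12 of 56 lowered genes were among them. All 84 kept their direction, and the median distance was 1.06 in the raised genes (0.67 to 2.10) and -0.80 in the lowered genes (-1.56 to -0.46). The sigma factor Gs35420 kept a distance of 1.19, the most counted gene Gs11340 one of 1.09 and Gs24380 one of 1.05. Of the 12 lowered genes with a product name, Gs24350 (-1.13) and Gs38150 (-1.19) remained set apart. The other 10 came under the minimum, from -0.994 (Gs29990) to -0.61 (Gs60660). In this setting C-28.2 set apart 21 raised and 18 lowered genes.

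Scaling alone also left fewer lowered genes. With library totals, the median of all genes was lower in C-28.1 than in H-42 by 0.05, than in H-46 by 0.19 and than in C-28.2 by 0.05 on the log2 scale. With library sizes scaled by TMM (trimmed mean of M values), which brings these medians to within 0.01 of 0, the thresholds gave 38 raised and 31 lowered genes, among them all 28 raised and 28 of the 56 lowered genes. The surplus of lowered over raised genes was therefore found with library totals and not with TMM. The split of all calls in C-28.1 against the mean of the others moved likewise, being 191 higher and 205 lower with TMM and 139 higher and 272 lower with library totals.

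Against C-28.2 alone, the sampling at the same temperature, none of the 84 genes was called (edgeR, adjusted p below 0.01 and fold above 2.5). Of all genes 0% were called higher and 0.016% lower. All 84 had an unadjusted p below 0.05 in this contrast, as did 2226 of the 6264 genes. At an adjusted p below 0.05 edgeR called 11 raised genes (background 0.798%) and 20 lowered genes (background 1.79%). With the culture as a block, at the first threshold, it called 12 raised (0.926%) and 15 lowered genes (1.25%), and DESeq2 called 11 (0.75%) and 18 (1.61%). The rule used this contrast as well, and it shares the C-28.1 libraries with the others, so nothing is read from these counts. The label of the gene set, apart in the first cold only, describes the averages that the rule used. At the stricter threshold the unpaired fit called no member between both cold samplings, and 1 of all 6264 genes.

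The difference between the cold shifts (C-28.1 minus H-42, less C-28.2 minus H-46) gave no call in edgeR among all genes or members. An unadjusted p below 0.05 was found for 1551 genes, 24 raised and 49 lowered members among them. DESeq2 called 123 genes, 7 raised and 5 lowered members among them, and edgeR with the culture as a block called 3 genes and no member. Without H-46 C, which leaves only culture A in H-46, edgeR called 632 genes, 16 raised and 32 lowered members among them. That fit takes the spread of the lone H-46 library from the other samplings, and the members were chosen on values that enter it, so nothing is read from it.

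The same thresholds set apart 1 raised and 3 lowered genes in H-42, 6 and 2 in H-46, and 33 and 15 in C-28.2, against 28 and 56 in C-28.1. With TMM they gave 3 and 4 in H-42, 6 and 6 in H-46, and 23 and 19 in C-28.2, against 38 and 31 in C-28.1. More genes were set apart in either cold sampling than in either warm one, in both scalings, and no test of this difference was made.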

How the data were processed

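RNA was extracted from cultures of *G. sulphuraria*, and TruSeq libraries were sequenced in paired-end mode. The authors deposited raw counts of reads per gene, 1 table per library, without normalization. For splicing the study trimmed reads with Trimmomatic, mapped them with STAR and removed reads with several locations. Which annotation, counter and strand option gave the counts is not given in the sources used here, so genes that overlap or have close copies are uncertain. The 9 libraries were grouped by the sampling in the labels, although the heat and cold columns of one of the study's tables run the other way.

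The members and product lists were chosen with earlier results of these data known. CPM used library totals, and distances used log2(CPM + 1). Counts were fitted with edgeR 4.0.16 (limma 3.58.1, R 4.3.3), with TMM, filterByExpr, 4 conditions and Benjamini-Hochberg adjustment over 6264 genes. DESeq2 1.42.0 was an alternative. Standard errors are on the log2 scale. The scripts were tested on simulated data.

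Genes named in the text were the 12 members with the largest distance among those with a product name, the 3 largest without one, the 5 most counted, up to 4 per product list, those at the thresholds and any that the study names, raised and lowered apart. Gs24380 (also at a threshold), Gs33450, Gs44720, Gs44730 and the non-members named from lists were chosen after their values were seen. Product names came from the study's tables (1164 genes). Gene lengths and order came from the RefSeq table of assembly ASM34128v1, which matched 6510 genes.

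Libraries of one letter were taken to come from the same culture, as the study moved its cultures through the samplings. The study's text does not match the letters across samplings. Deviations of same-letter libraries from their sampling means correlated with r of 0.06 to 0.60 across genes, and those of different letters with r of -0.60 to 0.39. In a sampling of 2 libraries the deviations mirror each other, so these values do not test the pairing. Samplings held 2 or 3 libraries, and with 4389066 to 8989387 counts per library 1 count equals 0.111 to 0.228 CPM. Alternatives were other scalings, pseudocounts, minimum levels, distances and spans, the culture block, and leaving out each library. The lane of each library was not used here, as the labels do not give it.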

Additional observations from a re-analysis of the deposited data

Results flagged for a closer look

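Gs00300, the cornichon family gene, was the only named member in which, without regard to culture, all libraries of C-28.1 lay on one side of H-42 and all of C-28.2 on the opposite side of H-46. Gs00300 was lower in C-28.1 (12.0 to 18.7 CPM, n = 3) than in H-42 (29.4 and 39.4 CPM) and higher in C-28.2 (41.2 and 72.8 CPM) than in H-46 (34.6 and 39.9 CPM), with every library on its side. Set against each other, both shifts differed by -1.94 in log2 (standard error 0.45, adjusted p = 0.0801 from edgeR with Benjamini-Hochberg adjustment), which is not past the threshold. The values that chose this gene enter that difference. Within culture C, the one culture with all samplings, other named members did the same: Gs32320 had 69.7 CPM in C-28.1 against 194 in H-42, and 259.8 CPM in C-28.2 against 234 in H-46.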

How the results depend on the processing

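Of 396 alternative distances of 33 named members, 324 stayed within 1 SD of the C-28.1 libraries. Another 72 moved by more, 2 of them to under 0.5 (lowest 0.33). None changed direction, but a pseudocount or a left-out library could not have reversed it. In every member the C-28.1 libraries lay beyond all others, so only TMM among these alternatives could. The 28 raised genes became 74 or 4 with a distance of 0.8 or 1.3, and 104 without culture A after rewarming. The 56 lowered genes became 31 with TMM or with DESeq2 size factors and 24 with a pseudocount of 5. They became 129 or 8 with a distance of 0.8 or 1.3 and 120 without culture A after rewarming. With the length trend and the median shift of each library removed together they became 19. Leaving out 1 library gave 15 to 88 raised and 27 to 110 lowered genes. Against the mean of the others, dropping the fold minimum made 1576 calls (396 with it), 83 of them members (40 with it). Leaving out 1 library gave 284 to 506 calls and 25 to 61 members, with 25 without C-28.1 C or H-46 C and 61 without H-46 A. Against C-28.2 (1 call, 0 members) there were 148 calls and 29 members with DESeq2, 44 and 4 with library totals, 32 and 4 without a filter, 162 and 31 at an adjusted p below 0.05, 136 and 27 with the culture letter as a replicate block, and 0 to 128 calls and 0 to 30 members without 1 library. Without H-46 A, H-46 C and C-28.2 A the calls were 128, 127 and 92. The difference between the shifts (0 calls) gave 123 with DESeq2, 3 with the culture block, 1 at an adjusted p below 0.05 and 0 to 632 without 1 library. The block moved no other count by over 1.5 times. The cause of these changes was not tested. Low counts limit Gs06700, Gs28770 and Gs15690, and with 2 libraries in most samplings an average rests on few cultures.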
